A study of Mus musculus with 16 samples.

Results

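Bdnf, Ntf3, Ntrk2, Ntrk3 and Ngfr, 2 neurotrophin genes and 3 genes of their receptors, were taken by symbol from the 24062 genes of the count table, which holds 1 row for each of the 5. Neurotrophins are secreted growth factors that keep neurons alive and shape their synapses. Each acts through a receptor tyrosine kinase of the Trk family and through the shared receptor p75. In the brain BDNF, encoded by Bdnf, is released in an activity-dependent way and signals through TrkB, encoded by Ntrk2. NT-3, encoded by Ntf3, signals through TrkC, encoded by Ntrk3, and p75, encoded by Ngfr, binds all neurotrophins and their uncleaved precursors. Both Trk genes also make truncated receptors without a kinase domain, and truncated TrkB is abundant in astrocytes. Counts per gene add all such forms together.

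Each gene also had 1 row among the 23991 genes of the FPKM table (mapped fragments per length of transcript, scaled to library size). All 5 had enough reads to be tested in every comparison. RNA was sequenced from whole brains, cerebellum included, of 16 female C57BL/6J mice killed on postnatal day 45, with 4 mice in each group and 1 library per mouse. WW mice had only water. NW mice had 200 µg/ml nicotine in tap water for 22 h per day and water in the drinking sessions. Water-Ethanol mice had 20% v/v ethanol on 4 days in drinking-in-the-dark sessions of 2 h, the last of 4 h, and water at other times. NE mice had nicotine and ethanol on those schedules. The sequenced mice were a random subset of those in the study. There NE mice drank more ethanol than Water-Ethanol mice in the last session and had higher blood ethanol. NE and Water-Ethanol may thus differ in ethanol taken as well as in nicotine. The mice were killed at the end of the last session of 4 h, during which no nicotine was offered. All groups shared the strain, sex, age and handling, and the mice were not forced to drink, though nicotine solution was all that the nicotine groups were offered in those 22 h.

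Counted reads per mouse ranged from 27100352 to 32880979. The cerebellum markers, 14 of 14 of which were measured, were low in 2 brains. Their summed normalized count was 18034 in WW replicate 4 and 23794 in NW replicate 3, and the highest value in any mouse was 55073. Markers of cortex, striatum, astrocytes and oligodendrocytes, checked against the tissue label, had medians above 0. Replicate numbers only name the mice.

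On GRCm38, Bdnf spans chr2:109674700-109727043 on the plus strand with 9 exons in the authors' count table. Its upstream exons begin alternative transcripts that splice to the last one, which holds the coding sequence, and GENCODE M21 lists 11 Bdnf transcripts. RefSeq promoter windows of GRCm38.p6, from 250 bases before to 50 after each start site, matched 4 of the 5 genes (7 for Bdnf, 2 for Ntf3, 1 each for Ntrk2 and Ngfr). The windows below are those of Bdnf exon 4, whose promoter is known for its response to neuronal activity, and of Ntrk2. They are shown because the levels of these genes moved together from brain to brain. The capitals mark TCACGTCA, a cyclic AMP response element of the kind bound by CREB, in Bdnf, and GGGCGG, a GC box, in Ntrk2.
Bdnf, chr2:109692186-109692485, plus strand: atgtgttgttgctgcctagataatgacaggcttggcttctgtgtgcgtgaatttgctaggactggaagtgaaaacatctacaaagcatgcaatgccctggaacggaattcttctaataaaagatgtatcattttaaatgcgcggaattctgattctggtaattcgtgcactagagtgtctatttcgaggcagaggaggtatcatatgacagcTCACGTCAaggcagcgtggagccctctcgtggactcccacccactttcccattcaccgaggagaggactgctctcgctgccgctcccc
Ntrk2, chr13:58806319-58806618, plus strand: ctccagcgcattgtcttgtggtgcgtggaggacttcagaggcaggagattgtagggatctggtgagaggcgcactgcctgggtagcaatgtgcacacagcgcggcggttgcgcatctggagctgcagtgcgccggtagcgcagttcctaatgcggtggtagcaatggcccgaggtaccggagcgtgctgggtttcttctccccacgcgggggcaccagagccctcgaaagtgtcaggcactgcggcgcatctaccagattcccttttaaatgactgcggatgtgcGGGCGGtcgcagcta
The 4 motifs TCACGTCA, TGACGTCA, CACGTG and GGGCGG were searched on both strands. TCACGTCA lay from base -38 to base -31 before the Bdnf start site at 109692436, and it occurred in 1 of the 11 windows of the neurotrophin genes and in 0.441% of all 32851 windows. The palindrome TGACGTCA was in 0 of the 11 windows and in 1.79% of all. CACGTG was in 1 of the 11, a window of Ntf3, and in 7.15% of all, and GGGCGG was in 6 of the 11 and in 35.7% of all. Gene counts do not show which Bdnf promoter was in use.

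The Trk receptor genes were expressed far above the ligand genes, and in FPKM Ngfr was the lowest of the 5. Ntrk2 had a median level of 113.6 FPKM over the 16 mice (103.99 to 121), higher than 97.5% of the genes in the table. Ntrk3 followed with 25.3 FPKM (22.8 to 27.8) and Bdnf with 8.80 FPKM (6.74 to 9.46). Ntf3, at 1.85 FPKM (1.48 to 2.39), and Ngfr, at 1.31 FPKM (1.13 to 1.71), were the lowest. This order in FPKM held in 16 of 16 brains for every pair of neighbours. Of these neighbours only Ntf3 and Ngfr had ranges that overlapped between brains, and within a brain Ntf3 was 1.16 to 2.02 times Ngfr. The place of Ntf3 above Ngfr rests on the scaling to length. Raw counts were higher for Ngfr (median 122.5) than for Ntf3 (60), and their exon lengths were 3406 and 1548 bases. Ntrk2 exceeded Ntrk3 by 3.87 to 5.01 times in level per length.

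The precision differed with the level. Raw counts had medians of 24602.5 for Ntrk2, 2550.5 for Ntrk3, 955 for Bdnf, 122.5 for Ngfr and 60 for Ntf3. Counting error alone is then 0.638% of the mean for Ntrk2 and 1.98% for Ntrk3, and the SD within groups was 4.23% and 5.25%. For Bdnf the same values were 3.24% and 9.35%. The spread of Ntf3 (14.0%) and Ngfr (12.8%) lay close to their counting errors of 12.9% and 9.04%.

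None of the 5 genes was called different between groups by edgeR (quasi-likelihood test, Benjamini-Hochberg adjusted p under 0.05 over all genes tested). That holds for each of 8 comparisons, 40 tests in all: NW, Water-Ethanol and NE against WW, NE against each single substance, and the ethanol effect, the nicotine effect and their interaction from a fit of all 16 mice. At an unadjusted p-value under 0.05 there were 4 of 40, all named below. They fell in Water-Ethanol against WW, NE against WW and the ethanol effect. There 19.3%, 17.5% and 22.9% of all genes had such a p-value. Every one of the 40 intervals of the log2 fold change lay within a 2-fold change either way, and the widest bound was 0.59 on the log2 scale, for Ntf3. Intervals were narrowest for Ntrk3 and Ntrk2, whose largest bounds were 0.19 and 0.23 on that scale. Among all genes tested the calls were 0% in NW against WW, 0.457% in Water-Ethanol against WW, 0.313% in NE against WW and 4.5% in the ethanol effect. They were 0% in NE against Water-Ethanol, NE against NW, the nicotine effect and the interaction. In those 5 comparisons without a call, DESeq2 called 121 genes in NW against WW, 2 in NE against Water-Ethanol, 92 in NE against NW, 98 for the nicotine effect and 1 for the interaction, and in no comparison did it call any of the 5 genes. The share of genes whose unadjusted edgeR p was under 0.05 was 8.44% (1295 genes) in NW against WW, 5.8% (888) in NE against Water-Ethanol, 11.9% (1830) in NE against NW, 10.3% (1599) for the nicotine effect and 6.76% (1054) for the interaction.

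**Figure D1:**
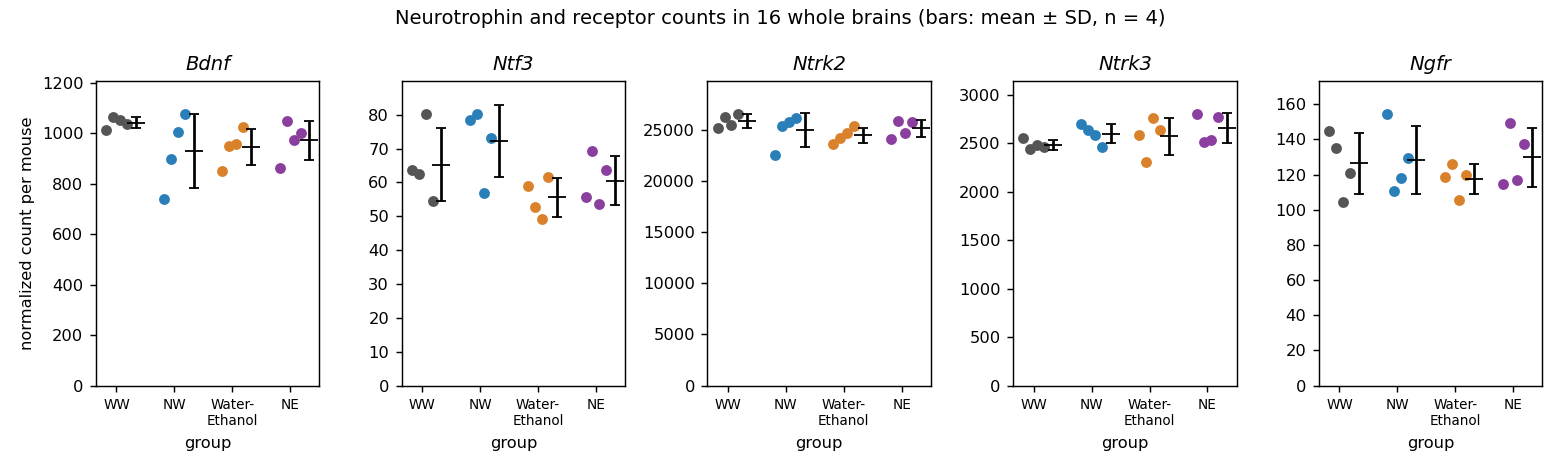
Normalized counts of Bdnf, Ntf3, Ntrk2, Ntrk3 and Ngfr in each mouse (points) by group (WW water, NW nicotine, Water-Ethanol, NE both), with the mean ± SD of 4 mice beside them and axes that start at 0. Bdnf in WW lay between 1014 and 1066 and reached down to 741 in NW, and for each gene the groups overlap.

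Bdnf had normalized counts of 1014, 1066, 1054 and 1036 in the WW mice. The NW mice had 741, 899, 1004 and 1078, the Water-Ethanol mice 852, 948, 958 and 1026, and the NE mice 864, 1049, 973 and 1001. In each treated group 3 of 4 mice lay below the lowest WW mouse, and in each the remaining mouse lay among or above the WW values. The 3 comparisons share the WW mice, whose SD of 2.17% of the mean was below the counting error of 3.12%. The NW mice had an SD of 15.7%, the Water-Ethanol mice one of 7.58% and the NE mice one of 8.05%. Group means (± SD of 4 mice) were 1042 ± 22.6 for WW, 930.4 ± 146 for NW, 946 ± 71.7 for Water-Ethanol and 972 ± 78.2 for NE.

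The largest of these Bdnf differences relative to its error was Water-Ethanol against WW. Its log2 fold change in edgeR was -0.14 ± 0.055 (SE; 95% interval -0.26 to -0.017), a difference of -9.10% (-16.4% to -1.20%). The edgeR p was 0.0281 and the adjusted p 0.203. In that comparison 19.3% of all genes had an unadjusted p-value under 0.05. NW against WW gave -0.16 ± 0.094 (adjusted p = 0.671 in edgeR), or -0.070 without NW replicate 1, and NE against WW -0.10 ± 0.057 (adjusted p = 0.392 in edgeR). NE differed from Water-Ethanol by 0.036 ± 0.066 and from NW by 0.059 ± 0.099. The ethanol effect over all mice was -0.039 ± 0.062, the nicotine effect -0.063 ± 0.062, and the interaction 0.20 ± 0.12 on the log2 scale, with adjusted p-values of 0.742, 0.784 and 0.806 in edgeR. On the second table, an exact two-sided permutation test of log2(FPKM + 1) gave p = 0.0571 for Bdnf in Water-Ethanol and in NE against WW, and 4 against 4 mice allow no p below 0.0286. Of 25 such tests over the 5 genes, 0 had a p-value under 0.05.

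Ntrk2, the BDNF receptor gene, lies on chr13:58806569-59133970 on the plus strand with 20 exons. Its normalized counts were 25162, 26185, 25405 and 26547 in WW and 22472, 25377, 25732 and 26122 in NW. The Water-Ethanol mice had 23546, 24157, 24659 and 25349.6, and the NE mice 24117, 25857, 24687 and 25774. In Water-Ethanol 3 of 4 mice were below every WW mouse, against 2 in NE and 1 in NW, NW replicate 1. Water-Ethanol against WW differed by -0.077 ± 0.035 on the log2 scale, or -5.22% (95% interval -10.1% to -0.033%). The p-value was 0.0488 and the adjusted p 0.256 in edgeR. The other 7 log2 differences of Ntrk2 ranged from -0.050 in NW against WW to 0.091 for the interaction.

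The 2 genes with an unadjusted p-value under 0.05 in Water-Ethanol against WW, Bdnf and Ntrk2, were lower beside a difference in tissue markers. Markers of cortical and hippocampal excitatory neurons, 12 of 12 measured and none at 0, had a summed normalized count of 38263 to 42225 in WW, 37913 to 43097 in NW, 35188 to 37508 in Water-Ethanol and 36753 to 41413 in NE. Their score, the mean of centred log2 counts, was lower in Water-Ethanol than in WW, with a difference of -0.10 (exact permutation p = 0.0286, the smallest possible). The permutation p-values of the scores were not adjusted for the number of scores and comparisons. Astrocyte markers, 8 of 8 measured and none at 0, summed to 183426 to 197794 in WW, 179634 to 195066 for NW, 174715 to 180583 for Water-Ethanol and 174184 to 186087 for NE, a score difference of -0.091 between Water-Ethanol and WW (exact permutation p = 0.0571). The 8 of 8 oligodendrocyte markers, none at 0, summed to 208995 to 249197 in WW, 213152 to 243338 for NW, 192223 to 224052 for Water-Ethanol and 205121 to 234918 for NE, a score difference of -0.18 (exact permutation p = 0.0857). The part of these 3 lists in the Bdnf and Ntrk2 values was not tested. Their relations with both genes across mice are given below. In whole-brain RNA, fewer cells of a type and less RNA per cell cannot be told apart. With the cerebellum and olfactory bulb scores as covariates the Bdnf difference was -0.18 and that of Ntrk2 -0.090, and neither was called. None of the 3 lists above was in that fit, so it does not test their part.

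Ntf3 lies on chr6:126101412-126166744 on the minus strand with 3 exons. Its normalized counts were low: 63.8, 62.4, 80.2 and 54.6 in WW, 78.3, 80.3, 56.8 and 73.2 in NW, 58.9, 52.6, 49.2 and 61.6 in Water-Ethanol, and 55.6, 69.2, 53.6 and 63.8 in NE. Both ethanol groups had lower means (55.6 ± 5.69 and 60.5 ± 7.25) than WW (65.2 ± 10.8) and NW (72.2 ± 10.7; SD, n = 4), with overlap between all groups. The ethanol effect over 16 mice was -0.25 ± 0.10 on the log2 scale, or -15.8% (95% interval -27.6% to -2.02%). The edgeR p was 0.0283 and the adjusted p 0.165. In that fit 22.9% of all genes had an unadjusted p-value under 0.05. With WW replicate 4 and NW replicate 3 both left out, an alternative chosen after the data were seen, the effect was -0.33 with an adjusted p of 0.0525 in edgeR, the lowest adjusted p that any alternative gave for any of the 5 genes. Within the nicotine-free mice the ethanol difference was -0.23 ± 0.15 and within the nicotine mice -0.27 ± 0.15, and the interaction was -0.029 ± 0.21. The nicotine effect was 0.13 ± 0.10 (adjusted p = 0.712 in edgeR).

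Ntrk3, the NT-3 receptor gene, lies on chr7:78192114-78577838 on the minus strand with 19 exons, and GENCODE M21 draws its gene wider, from 78175959 to 78738012. Normalized counts were 2558, 2438, 2488 and 2463 in WW, and 2697, 2643, 2587 and 2468 in NW. The Water-Ethanol mice had 2589, 2310.5, 2768 and 2634, and the NE mice 2808, 2512, 2537 and 2774. The WW mice lay close together (SD 2.08% of the mean), and 3 NW mice, 3 Water-Ethanol mice and 2 NE mice were above them all. Water-Ethanol replicate 2 was below them all. NE against WW gave 0.099 ± 0.044 on the log2 scale, or 7.08% (95% interval 0.179% to 14.4%). The edgeR p was 0.0450 and the adjusted p 0.276. In that comparison 17.5% of all genes had an unadjusted p-value under 0.05. NW and Water-Ethanol differed from WW by 0.065 ± 0.043 and 0.053 ± 0.050.

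Ngfr lies on chr11:95568821-95587698 on the minus strand with 6 exons. In the adult brain p75 is known from cholinergic neurons of the basal forebrain. Its normalized counts were 145, 135, 105 and 121 in WW, 155, 111, 118 and 129 in NW, 119, 126, 106 and 120.0 in Water-Ethanol, and 115, 149, 117 and 138 in NE. The ranges of the 4 groups lay over one another. The 8 log2 differences ran from -0.098 ± 0.12 in Water-Ethanol against WW to 0.13 ± 0.11 in NE against Water-Ethanol, and no unadjusted p-value was under 0.05. With a median of 122.5 reads per mouse, the 95% interval for NW against WW ran from -17.5% to 25.6%.

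**Figure D2:**
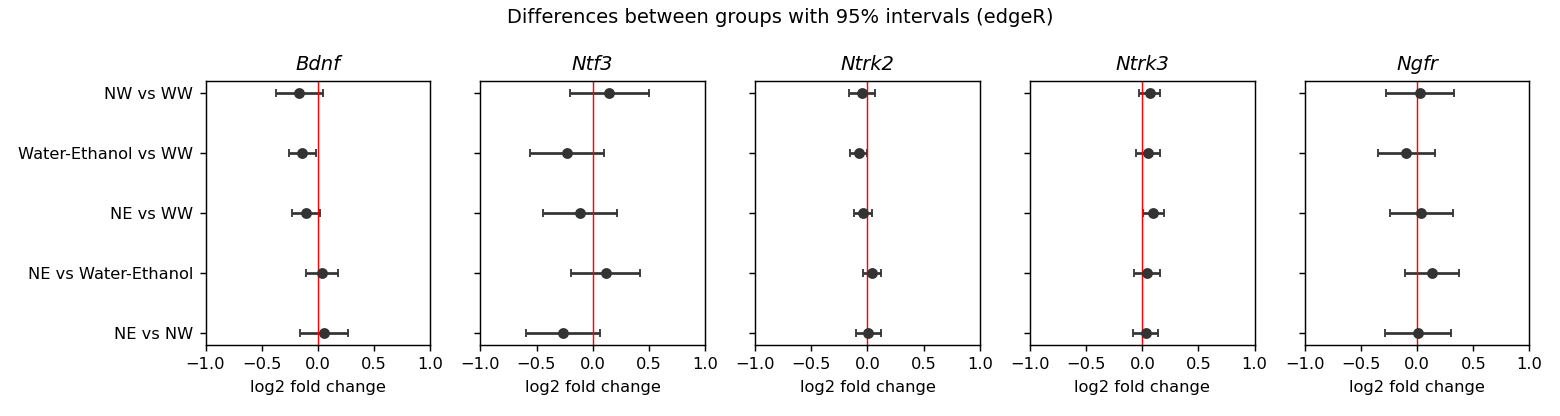
Log2 fold changes of Bdnf, Ntf3, Ntrk2, Ntrk3 and Ngfr (points) in 5 comparisons between groups of 4 mice, with 95% intervals from edgeR, and 0 as the vertical line. Intervals are narrow for Ntrk2 and Ntrk3 and wide for Ntf3 and Ngfr, and 3 of the 25 exclude 0, those of Bdnf and Ntrk2 in Water-Ethanol against WW and of Ntrk3 in NE against WW.

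For none of the 5 genes did any 2 of the groups separate. Among all genes tested, the 4 mice of one group all lay outside the range of the other in 5.96% for NW against WW, 10.8% for Water-Ethanol against WW, 10.7% for NE against WW, 3.52% for NE against Water-Ethanol and 7.43% for NE against NW.

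Ratios within a library do not depend on how libraries are scaled. On the FPKM scale Ntrk2 to Ntrk3 had a mean log2 ratio of 2.25 ± 0.072 for WW, 2.14 ± 0.14 for NW, 2.13 ± 0.10 for Water-Ethanol and 2.11 ± 0.098 for NE (SD of 4 mice). The NE difference from WW was -0.14 (exact permutation p = 0.0857). Bdnf to Ntf3 had 2.29 ± 0.21 in WW and 1.95 ± 0.37 in NW, a difference of -0.34 with an exact permutation p of 0.200. Of 15 tests of these ratios and of Ntrk2 to Ngfr, 0 had a p-value under 0.05.

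Bdnf and Ntrk2 varied together among brains of the same group. With group means removed from log2 CPM (counts scaled to library size), Pearson's r over the 16 mice was 0.915 (permutation p = 8e-05 within groups) and Spearman's rho 0.874 (permutation p = 0.00026). The adjusted permutation p-values over 70 relations examined in the same way were 0.0056 and 0.0182. The sign was positive within 4 of 4 groups, and r was 0.757 without NW replicate 1 and Water-Ethanol replicate 1, the mice farthest from the median. On log2(FPKM + 1) r was 0.870. Of 15591 other genes tested, Ntrk2 ranked at place 3 for likeness to Bdnf and Bdnf at place 4 for likeness to Ntrk2, yet 630 genes had an r of at least 0.7 with Bdnf and 633 with Ntrk2. Those most like Bdnf were Ccdc127 (r = 0.933), Ssx2ip (0.930), Ntrk2, Agfg1 (0.914) and Socs5 (0.912). Those most like Ntrk2 were Ssx2ip (0.938), Man1a (0.919), Crispld1 (0.917), Bdnf and St8sia3 (0.912).

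**Figure D3:**
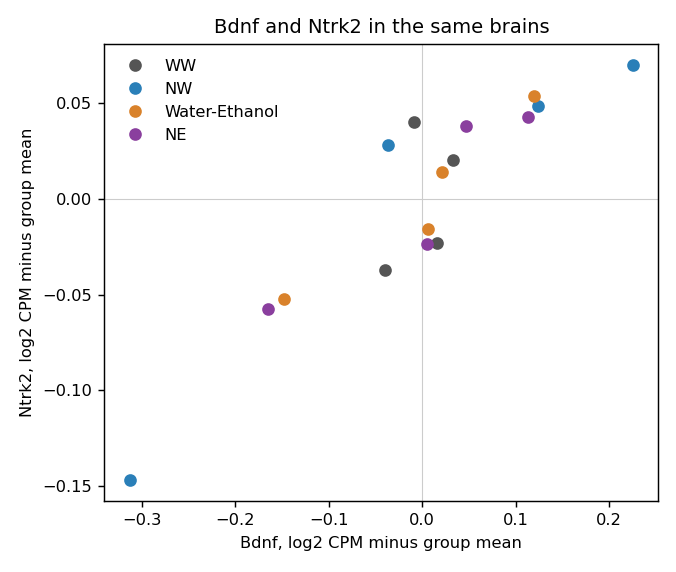
Bdnf against Ntrk2 in 16 brains, each as log2 CPM minus its group's mean, coloured by group. The points rise together (Pearson's r = 0.915), with NW replicate 1 at the lower left end.

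Some tissue scores moved with both genes. The score of cortical and hippocampal excitatory neurons had r = 0.707 with Ntrk2 (permutation p = 0.0309) and 0.639 with Bdnf (permutation p = 0.0759), and that of striatal markers 0.612 (p = 0.00928 by permutation) and 0.535 (p = 0.0186 by permutation). After adjustment over the 70 relations none of these 4 permutation p-values was under 0.05 (0.162 to 0.443). The astrocyte score had r = 0.0088 with Bdnf and -0.068 with Ntrk2. With the oligodendrocyte score r was negative, -0.50 for Bdnf (permutation p = 0.0878) and -0.36 for Ntrk2 (permutation p = 0.256). The striatal score differed by -0.025 between Water-Ethanol and WW (exact permutation p = 0.743). The part of these scores in the link of Bdnf with Ntrk2 was not tested. No other pair of the 5 genes had an unadjusted permutation p-value under 0.05. Bdnf and Ntrk3 had r = -0.409, Bdnf and Ntf3 -0.082, and Ntrk3 and Ngfr -0.187.

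Of the marker scores, those of vessels and meninges had the largest r with Ntf3. Its spread within groups (14.0%) lay close to its counting error (12.9%), which limits what its relations can show. With the meninges and fibroblast score, 9 of 9 markers measured, r was 0.726 (permutation p = 0.00112, adjusted 0.0392) and rho 0.741 (permutation p = 0.0033, adjusted 0.0712). Without WW replicate 3 and Water-Ethanol replicate 3 r was 0.531. With the pericyte and endothelial score, 8 of 8 markers measured, r was 0.787 (permutation p = 0.00463, adjusted 0.108), and 0.754 without WW replicate 3 and NW replicate 1. Within groups r was positive in 3 of 4 for this score and in 4 of 4 for the meninges and fibroblast score. Ntf3 was lower where the hypothalamus score, 9 of 10 markers, was higher, with r = -0.653 (permutation p = 0.0183, adjusted 0.217), negative in 4 of 4 groups and -0.849 without WW replicate 2 and NE replicate 4. The link with the cerebellum score, r = 0.627 (permutation p = 0.0536), turned to -0.234 without WW replicate 4 and NW replicate 3.

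The scores of vessel and meninges markers were also compared between groups. The permutation p-values were not adjusted for the number of scores and comparisons, and 0.0286 is the smallest possible. The pericyte and endothelial markers summed to 7638 to 8099 normalized counts in WW, 7354 to 8177 in NW, 7242 to 7570.5 in Water-Ethanol and 7306 to 7941 in NE, with none at 0. Their score was lower in Water-Ethanol than in WW, with a difference of -0.12 (exact permutation p = 0.0286). The meninges and fibroblast markers summed to 23413 to 27072 in WW, 22965 to 30361 in NW, 22964 to 26926 in Water-Ethanol and 22218 to 24739 in NE, with none at 0. Their score was lower in NE than in WW and in NW, with differences of -0.27 and -0.15 (exact permutation p = 0.0286 for each). Their part in the lower Ntf3 of the ethanol groups was not tested.

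**Figure D4:**
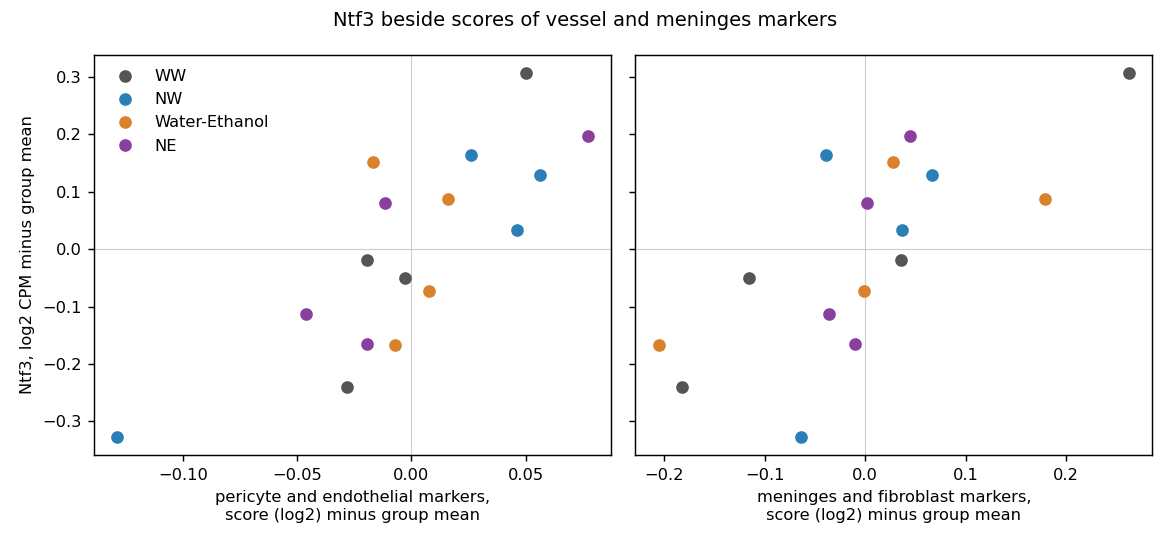
Ntf3 (log2 CPM minus its group's mean) in 16 brains against the scores of pericyte and endothelial markers and of meninges and fibroblast markers, also minus group means, coloured by group. Ntf3 was higher where either score was higher, with r = 0.787 for the first and 0.726 for the second.

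Ngfr had its largest link by size with the basal forebrain cholinergic score, r = -0.562 (permutation p = 0.0430, adjusted 0.335), and -0.442 without NW replicate 1 and WW replicate 2. Ntrk3 had no unadjusted permutation p-value under 0.05 with any of the 11 marker scores. Genes most like Ntf3 were Alkbh7 (r = 0.896), Nudt9, Zcchc17, Iscu and Nomo1. Those most like Ntrk3 were Top3b, Hip1r, Rgp1, Bcl9 and Npsr1, and those most like Ngfr were Kif20a, Shroom4, Cyb5r3, Kntc1 and Prr15.

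The activity-regulated genes, which BDNF signalling and neuronal firing induce, were low in 2 of the NW mice, with scores of -0.33 and -0.57 against -0.065 to 0.18 in the mice outside NW. Arc, a gene of synaptic plasticity, had normalized counts of 2978 and 1250.3 in NW replicates 1 and 2 against 6073 and 6024 in the others, and 4829 to 6121 in WW. Those 2 mice also had the lowest Bdnf values of the group, 741 and 899. Over the 16 mice the score of 17 activity-regulated genes, a relation chosen after the data were seen, had r = 0.476 with Bdnf (permutation p = 0.366), and r was -0.108 without these 2 mice. Of the 5 genes only Ntf3 had an unadjusted permutation p-value under 0.05 with this score (r = -0.559, permutation p = 0.0418, adjusted 0.335), and r was -0.456 without the same mice.

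The remaining genes of the pathway were taken from 7 lists. Of 10 other ligands and receptors, 9 were tested and 0 were called in any comparison. Ntf5, the gene of the other TrkB ligand, had a mean of 4.23 or fewer normalized counts per mouse in every group and was not tested.

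Among genes that cut, release or inhibit the cutting of neurotrophin precursors, 14 of 16 were tested. Furin encodes the protease that cleaves such precursors, among many other proteins, in the secretory pathway. It had 1162, 1162, 1172 and 1169 normalized counts in WW and 1210.1, 1161, 1169 and 1219.7 in NW. In Water-Ethanol it had 1392, 1330.5, 1494 and 1483, and in NE 1457, 1409, 1493 and 1340.1, so that the 8 ethanol mice lay above the 8 others with no overlap. The share of all genes with such a separation was not counted. Furin is named because it was called in these same data, so the separation is no separate support for that call. Furin rose by 0.29 ± 0.045 on the log2 scale in Water-Ethanol against WW (adjusted p = 0.0357 in edgeR) and by 0.29 ± 0.044 in NE against WW (adjusted p = 0.0372 in edgeR). The 4 WW mice, which both comparisons share, had an SD of 0.437% of their mean. Either call was lost in 6 of the 8 fits that left out 1 mouse, with adjusted p-values up to 0.130 and 0.175 in edgeR. In Water-Ethanol these were the fits without WW replicate 2 or 3 or any Water-Ethanol mouse, and in NE those without WW replicate 1, 2 or 3 or NE replicate 1, 2 or 3. The ethanol effect on Furin was 0.27 ± 0.032 (adjusted p = 0.000214 in edgeR), and it was called in all 16 fits that left out 1 mouse. Plat, the gene of tissue plasminogen activator, which activates the plasmin that can cleave BDNF precursor outside cells, rose by 0.16 ± 0.036 in the ethanol effect (adjusted p = 0.0201 in edgeR). Without NW replicate 2 or NE replicate 3 the adjusted p was 0.0524 and 0.0518. The list had 2 of 14 called for the ethanol effect, both higher, where 4.5% of all genes were called and 2.94% were called higher. At an unadjusted edgeR p under 0.05 there were 7 of the 14, 4 lower and 3 higher, against 22.9% of all genes. The median log2 difference of the list was -0.039, against 0.0021 over all genes.

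Of 47 adaptors and kinases downstream of Trk receptors, 4 were called for the ethanol effect, and all 4 rose. They were Sh2b3, an adaptor (0.20 ± 0.040, adjusted p = 0.00992 in edgeR), Sos2 (0.15 ± 0.039, adjusted p = 0.0387 in edgeR) and Sos1 (0.12 ± 0.031, adjusted p = 0.0310 in edgeR), exchange factors that load Ras with GTP, and Rapgef1 (0.12 ± 0.030, adjusted p = 0.0260 in edgeR), which does so for Rap1. Of the 16 fits that left out 1 mouse, Sh2b3 lost its call in 0, Rapgef1 in 4, Sos1 in 6 and Sos2 in 9, with adjusted p-values up to 0.0796 in edgeR. WW replicate 3, NW replicate 2 and Water-Ethanol replicate 3 were among those mice for each of the 3 genes. Without nicotine the log2 difference (Water-Ethanol against WW) was 0.050 for Sos1, 0.099 for Sos2, 0.094 for Rapgef1 and 0.19 for Sh2b3. With nicotine (NE against NW) it was 0.20 for Sos1, 0.20 for Sos2, 0.15 for Rapgef1 and 0.21 for Sh2b3. None of the 4 was called in either comparison or for the interaction (adjusted p 0.709 or more in edgeR). The median of the 47 was 0.042, against 0.0021 over all genes, and 2.94% of all genes were called higher. Of 14 effectors of p75 tested, Traf6, an adaptor in NF-κB signalling, rose by 0.18 ± 0.036 (adjusted p = 0.00956 in edgeR). Of 19 negative regulators of Trk signalling, 2 rose, Spred2, an inhibitor of Ras and ERK signalling (0.17 ± 0.035, adjusted p = 0.0101 in edgeR), and the phosphatase gene Ptpn1 (0.15 ± 0.041, adjusted p = 0.0442 in edgeR). Traf6 and Spred2 kept these calls in 16 of 16 fits without 1 mouse, and Ptpn1 lost its call in 11 of 16 (adjusted p up to 0.0924 in edgeR). Ptpn1 differed by 0.086 without and 0.21 with nicotine, Spred2 by 0.096 and 0.25, and Traf6 by 0.22 and 0.15, and none of these 6 values was called. Spred2 also rose in NE against WW, by 0.24 ± 0.044 (adjusted p = 0.0453 in edgeR), a call that was lost in 7 of 8 fits without 1 mouse, all but that without WW replicate 4.

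Of the 19 transcriptional regulators of Bdnf, Mef2c, a factor of activity-regulated transcription, fell by 0.31 on the log2 scale in Water-Ethanol against WW (SE 0.055, adjusted p = 0.0450 in edgeR). The call was lost in 7 of 8 fits without 1 mouse, all but that without WW replicate 4, with adjusted p-values up to 0.145 in edgeR. It had 15335 to 16239.5 normalized counts in WW and 11068 to 13383 in Water-Ethanol. For the ethanol effect 0 of the 19 were called, with Mef2c at -0.17 ± 0.058 (adjusted p = 0.0928 in edgeR). Of the 17 activity-regulated genes, 0 were called in any comparison, and their median was -0.18 in NW against WW, -0.0065 in Water-Ethanol against WW, 0.0040 in NE against WW and 0.16 in NE against NW. For the ethanol effect it was 0.12, against 0.0021 over all genes. The mice without ethanol in that fit include NW replicates 1 and 2, with activity scores of -0.33 and -0.57. In NW against WW, 0 genes of the 7 lists were called. Rap1a, a small GTPase of the adaptor and kinase list, had the lowest adjusted p-value there (-0.28 ± 0.057, adjusted p = 0.224 in edgeR). In NE against Water-Ethanol, NE against NW, the nicotine effect and the interaction, 0 were called as well.

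**Figure D5:**
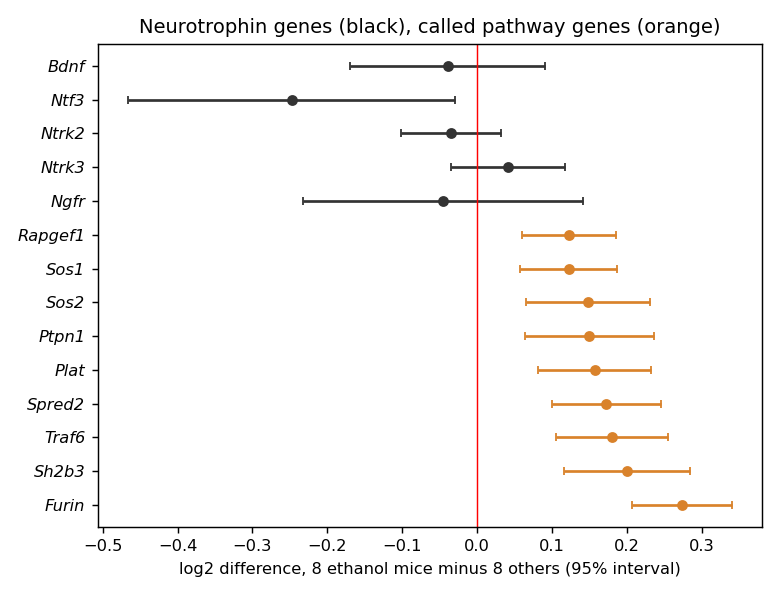
Log2 difference between the 8 mice with ethanol and the 8 without (points, 95% intervals from the edgeR fit of all 16 mice), for the 5 neurotrophin and receptor genes in black and the 9 genes of the pathway lists called for the ethanol effect in orange. The orange genes were picked by that call, so their intervals exclude 0 by selection, and all 9 lie above it. Of the black intervals only that of Ntf3, from -0.47 to -0.029, excludes 0.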

How the data were processed

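The authors trimmed single reads with Trimmomatic 0.32, aligned them to GRCm38 (mm10) with TopHat2 and deposited whole read counts per gene, not normalized, and FPKM from the Cufflinks tools, with 1 column per mouse. The program that counted reads and its use of strand are not given in the sources used here. The labels name a library kit without strand and the study's methods a stranded one. GENCODE M21 has an antisense gene, Gm45346, whose exons overlap those of Bdnf and which was not among the counted genes. Whether Bdnf counts hold reads of that gene cannot be told. Counts are shown scaled by TMM factors. Tests used edgeR 4.0.16 in R 4.3.3 (quasi-likelihood, TMM, default low-count filter, Benjamini-Hochberg, threshold 0.05), with DESeq2 1.42.0 and limma 3.58.1 as alternatives. SE is the absolute log2 fold change over the square root of F. Permutations, run in Python 3.11.15 with scipy 1.17.1 and numpy 2.4.6, numbered 100000 within groups for relations and a pseudocount of 1 for FPKM. In simulated counts for Water-Ethanol against WW (15240 genes), 79.8% of changes of log2 size 0.5 and 94.8% of log2 size 1 were recovered, with 14 false calls. No change below log2 size 0.5 was simulated. The log2 differences of the 5 genes were all smaller, so these shares do not give the power for them. The genes and lists were chosen with earlier results of these data known. Named pathway genes are those called in any comparison, plus some with the lowest p-values of their list and a few ligand and activity genes picked for their role. Some genes of the pathway lists are not reported here. Nothing in the labels says that mice came from separate litters. Counting errors cover read sampling only.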

Additional observations from a re-analysis of the deposited data

Results flagged for a closer look

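In 48 sets of 4 mice, 3 held a mouse whose gap to its nearest neighbour was past Dixon's 95% critical share of the range, and chance gives about 1 in 20. The sets hold each gene in both normalized counts and FPKM, so they are not independent. Bdnf in WW replicate 1 was 8.97 FPKM, with the other WW mice at 9.23 to 9.25 FPKM, and the counting error of Bdnf there is 3.12%. The cerebellum score was -1.35 in WW replicate 4 and -0.907 in NW replicate 3, lower than in the other mice of those groups. Without WW replicate 4 the log2 difference of Water-Ethanol from WW was -0.14 for Bdnf, as with it, and -0.064 for Ntrk2, against -0.077 with it.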

How the results depend on the processing

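No paired analysis was possible because the labels carry no replicate numbers shared between groups. Over the alternatives, the 40 log2 fold changes of the 5 genes gave 685 values, none of them called, of which 649 kept the direction and 36 reversed it, in 15 of 40 results. Calls over all genes moved most. DESeq2 called 121 genes in NW against WW, 605 in Water-Ethanol against WW, 508 in NE against WW, 2 in NE against Water-Ethanol, 92 in NE against NW, 1073 for the ethanol effect, 98 for the nicotine effect and 1 for the interaction. With marker scores as covariates the calls against WW were 4 for NW, 113 for Water-Ethanol and 0 for NE, and 1 for the interaction. In 1 fit of all 16 mice they were 112 in NW against WW, 28 in Water-Ethanol against WW and 57 in NE against NW. Without a low-count filter they were 143 in Water-Ethanol against WW and 1 in NE against Water-Ethanol. With limma on log2(FPKM + 1) they were 0 in Water-Ethanol against WW, 1 in NE against WW, 1 in NE against Water-Ethanol and 3 in NE against NW. Leaving out the 2 mice low in cerebellum markers, WW replicate 4 and NW replicate 3, an alternative chosen after seeing the data, gave 1061 for the ethanol effect.

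Leaving out each mouse gave 0 to 797 calls in Water-Ethanol against WW and 0 to 283 in NE against WW, both highest without WW replicate 4, 0 to 1 in NE against Water-Ethanol, 280 to 899 for the ethanol effect and 0 to 49 for the nicotine effect. The cause was not tested. Of the pathway calls for the ethanol effect, those of Furin, Sh2b3, Traf6 and Spred2 held in 22 of 22 alternatives, Plat in 20, Rapgef1 in 18, Sos1 in 14, Sos2 in 11 and Ptpn1 in 9. Furin held in 7 of 14 in Water-Ethanol and 6 of 14 in NE against WW, Mef2c in 4 of 14 and Spred2 in NE in 5 of 14.

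Log2 differences that reversed were near 0. With covariates Ngfr was -0.064 in NW against WW and -0.022 in NE against NW, and Ntrk3 -0.0053 in Water-Ethanol against WW. With limma the Ntrk3 interaction was 0.0034, and on TMM-scaled counts the log2 ratio of Ntrk2 to Ngfr in NE against NW was -0.0077. Leaving out each mouse, the log2 differences that reversed ranged in NE against NW from -0.035 to 0.14 (Bdnf), -0.063 to 0.11 (Ngfr), -0.037 to 0.030 (Ntrk2) and -0.0011 to 0.057 (Ntrk3). In NE against Water-Ethanol they ranged from -0.014 to 0.087 (Bdnf) and -0.0060 to 0.078 (Ntrk3), and in NE against WW from -0.043 to 0.11 (Ngfr) and -0.19 to 0.0052 (Ntf3). In NW against WW Ngfr ranged from -0.080 to 0.099. For the ethanol effect Bdnf ranged from -0.086 to 0.00036 and Ngfr from -0.086 to 0.0075, for the interaction Ntf3 from -0.15 to 0.046 and Ntrk3 from -0.070 to 0.014, and for the nicotine effect Ntrk2 from -0.015 to 0.018. Depth limits Ntf3 and Ngfr most, since their counting errors are 12.9% and 9.04%.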
